A study of Mus musculus with 12 samples.

Results

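EML1 cells carrying the TEL-AML1 fusion were compared after 7 days with IL7 and FLT3L and without that treatment. Of the 12 arrays of the series, 4 entered this comparison by their sample titles, 2 at day 7 and 2 untreated. EML1 is a progenitor line. It was derived by infecting marrow cells of BDF1 males with LRARalpha403SN, a retroviral vector, and it can be induced by IL-7 on stroma towards pre-pro-B features. Both groups carry that vector and the lentiviral vector pWPI with TEL-AML1, which joins part of ETV6 (TEL) to RUNX1 (AML1), both transcription factors. The series also holds TEL-AML1 cells at day 5 and cells with the empty pWPI vector at the same 3 stages, again with 2 arrays each. By the culture protocol, untreated cells grow in IMDM with horse serum and medium conditioned by BHK/MKL cells. The protocol for differentiation places 50000 EML1 cells on a layer of OP9 stroma in alpha-MEM with fetal bovine serum and adds 10 ng/ml IL7 plus 80 ng/ml FLT3L. The titles mention the cytokines alone, so contact with OP9 is known here from the protocol and not from the titles. If it applied, cytokines, stroma, medium, serum and time cannot be told apart in the day 7 difference. The labels do not say whether the 2 arrays of a group came from separate cultures, so p-values reflect array-to-array spread alone, and this could be technical. With 2 arrays against 2, an exact permutation test of 1 gene cannot give a two-sided p below 0.333, and all p-values below come from a limma model fitted across all genes.

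IL7 signals through its receptor, the common gamma chain and STAT5 and is needed for B-cell development in mice. FLT3L acts on the receptor kinase FLT3 of early lymphoid and dendritic progenitors. Interferons act on cells through other receptors and a complex of transcription factors that binds interferon-stimulated response elements in the promoters of antiviral genes. The mitotic genes are kept low outside G2 and M phase through a promoter element called CHR, and amino acid shortage raises a further set of genes through the factor ATF4. In bulk RNA, more cells of a type and more RNA per cell cannot be told apart.

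The array medians of deposited intensity lay between 68.1 and 72.9 over the 12 arrays. Across genes, the 2 untreated TEL-AML1 arrays correlated at 0.997 and the 2 day 7 arrays at 0.991, with median gaps of 0.07 and 0.10 on the log2 scale. Of 12345 genes tested, 964 (7.81%) passed an adjusted p of 0.05 between day 7 and untreated TEL-AML1 cells. They divided into 585 higher (4.74%) and 379 lower (3.07%) at day 7, and quantile normalization moved this split to 502 and 502. More than 2-fold were 112 genes (0.907%), of which 95 were higher (0.77%) and 17 lower (0.138%). Arrays of the groups lay apart without overlap for many more genes, with day 7 higher for 29.2% and lower for 27.5%. The median difference of all tested genes was −0.0018 on the log2(intensity + 16) scale, on which all differences below are given, and which understates the change of dim genes. Fewer genes passed without 1 array: 218 without untreated replicate 1, 199 without untreated replicate 2, 295 without day 7 replicate 1 and 508 without day 7 replicate 2. TEL-AML1 itself could not be checked as a fusion, since no probe set is named for it. The Runx1 probe set read 1370 and 1297 untreated and 1808 and 1874 at day 7, a difference of 0.46 (adjusted p = 0.0274, up to 0.197 with any 1 of the 4 arrays left out). That of Etv6 differed by 0.10 (adjusted p = 0.556), and neither separates the fusion from the mouse gene.

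Of the 10 highest differences among called genes, most were those of interferon-induced genes, with Car1, described further on, among them. Of 68 genes of an interferon response list, 55 could be tested, 5 were too dim and 8 had no probe set. Of the 55, 40 were higher at day 7 and 0 lower, against 4.74% and 3.07% of all tested genes. The intensity filter of 59.9 was applied to a mean that included treated arrays. A member dim when untreated could therefore be tested if it rose, while a dim member that did not rise was left out. The number tested thus depends in part on the response, here and in later counts of this list. The median difference of the list was 1.51, against −0.0018 over all genes. Without 1 array the count higher was 36 (untreated replicate 1), 34 (untreated replicate 2), 36 (day 7 replicate 1) or 39 (day 7 replicate 2).

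Stretches of 4 promoters show the letters searched for in these genes. The window searched ran from 250 bases before to 50 bases after each RefSeq start site on GRCm38.p6, and the letters were GAAA, any 2 bases and GAAA again, on either strand, a form of the interferon-stimulated response element. Capitals mark the matches, and each stretch is written 5′ to 3′ along the gene's strand.
Ifit1, chr19:34640775-34640804, plus strand: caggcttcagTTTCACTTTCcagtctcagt
Rsad2, chr12:26456553-26456582, minus strand: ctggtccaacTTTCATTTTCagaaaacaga
Oas3, chr5:120777715-120777744, minus strand: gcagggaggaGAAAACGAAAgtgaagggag
Slfn5, chr11:82951937-82951966, plus strand: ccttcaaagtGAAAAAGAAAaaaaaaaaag
In Ifit1 the match began 104 bases before the start site, and a second match lies close by in the 250 bases before the start, chr19:34640639-34640888.
Ifit1, 250 bases before the start, plus strand: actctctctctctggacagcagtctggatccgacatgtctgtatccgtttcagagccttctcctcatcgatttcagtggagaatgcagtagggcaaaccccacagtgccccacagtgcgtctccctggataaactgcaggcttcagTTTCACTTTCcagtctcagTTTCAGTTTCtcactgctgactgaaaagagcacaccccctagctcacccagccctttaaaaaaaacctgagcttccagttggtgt
Of the 40 interferon members called higher, 32 had a window and 15 of these (46.9%) held the letters. Among the members not called, 4 of the 9 with a window held them (44.4%), so called and uncalled members had similar shares. These shares count a gene once if any of its windows held the letters. Counted so, they were held by 3.43% of all tested genes with a window and 9.47% of all genes called higher (45 of 475). Of all 32851 windows, counted singly, 3.44% held them. These are matches of letters, not measured binding.

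Among the antiviral effectors, Usp18 stood highest. Usp18, which removes ISG15 from proteins and restrains interferon signalling, read 75.9 and 80.7 untreated and 2014 and 1565 at day 7, a difference of 4.25 (SE 0.21, adjusted p = 1.65e-06). Oasl2, an oligoadenylate synthetase-like protein, read 60.2 and 63.9 untreated and 1455 and 1417 at day 7, a difference of 4.22 (SE 0.17, adjusted p = 3.81e-07). Ifit1, which binds viral RNA lacking a host cap, read 50.1 and 50.7 untreated and 841 and 772 at day 7, a difference of 3.63 (SE 0.20, adjusted p = 3.86e-06). For all 3 genes both day 7 arrays lay more than 10-fold above both untreated ones. Ifitm3, a membrane protein that hinders virus entry, rose by 3.48 (SE 0.40, adjusted p = 0.000772) from 41.3 and 56 to 701 and 702. Oas2, which makes the activator of RNase L, rose by 2.996 (adjusted p = 0.00031), and its day 7 arrays stood apart at 981 and 633. The other oligoadenylate synthetases followed with 2.26 for Oas3 and 1.26 for Oas1a. Oas1a passed the test (adjusted p = 0.0261) only with both untreated arrays and day 7 replicate 1 in the fit, reaching 0.174 without the latter.

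Further effectors rose as well. Rtp4, an interferon-induced chaperone, read 68.2 and 54.7 untreated and 934 and 1002 at day 7 (difference 3.67, SE 0.14, adjusted p = 3.46e-07). Slfn5, a Schlafen family member, read 85.6 and 93.1 untreated and 567 and 585 at day 7 (2.49, SE 0.068, adjusted p = 4.55e-08, the smallest of all genes). Isg20, an RNA exonuclease, went from 248 and 263 to 1657 and 1629 (2.61, adjusted p = 2.08e-07). In these 3 genes the replicates lay close together against the distance between the groups. Rsad2, also called viperin, rose by 2.19 (SE 0.13, adjusted p = 7.03e-06), from 69.7 and 66.2 to 421 and 318. Cmpk2, a nucleotide kinase whose gene neighbours Rsad2, rose by 2.91 (SE 0.27, adjusted p = 0.000142), with its day 7 arrays apart at 650 and 348. Bst2 (tetherin) rose by 1.46, the helicase Mov10 by 1.80, the kinase Eif2ak2 (PKR) by 1.03 and the editing enzyme Adar by 1.01. The 2 Mx genes rose unequally, Mx2 by 1.60 and Mx1 by 0.61. The call of Mx1 (adjusted p = 0.0219) was lost, at up to 0.144, without either untreated array or day 7 replicate 1.

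The sensors and transcription factors of the pathway rose as well. Irf7, the factor that amplifies type I interferon production, read 94.3 and 82.4 untreated and 914 and 996 at day 7, a difference of 3.22 (SE 0.097, adjusted p = 5.63e-08). Irf9, a DNA-binding factor of the interferon response, rose by 1.24 (adjusted p = 2.12e-05) from 359 and 328 to 841 and 827. Stat2 rose by 0.70 (adjusted p = 0.025), a call lost without any 1 of the 4 arrays, at up to 0.16. Irf1, a factor induced by both interferon types, differed by 0.47 and did not pass (adjusted p = 0.0547). Among RNA sensors, Ddx58 (RIG-I) rose by 1.92 and Dhx58 (LGP2) by 2.84, while Ifih1 (MDA5) differed by 0.52 (adjusted p = 0.104). The nuclear body proteins Sp100 and Pml rose by 2.80 and 1.28. Sp100 read 112 and 126 untreated and 943 and 904 at day 7, so the groups lay far apart.

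The receptors of interferon showed smaller differences. Ifnar1 and Ifnar2, the 2 chains of the type I receptor, differed by 0.10 (adjusted p = 0.562) and 0.05 (adjusted p = 0.827). Ifngr1, a chain of the type II receptor, rose by 0.84 (SE 0.12, adjusted p = 0.00331) from 377 and 452 to 760 and 738. Cxcl10, a chemokine induced by interferon, stayed dim, at 46.6 and 47.2 untreated and 49.9 and 56.5 at day 7 (difference 0.14, adjusted p = 0.711). Ly6e, bright in every group, differed by 0.18 (adjusted p = 0.15). The tested members that did not pass thus included the receptor chains of type I interferon and a chemokine, beside the induced antiviral genes that did.

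**Figure D1:**
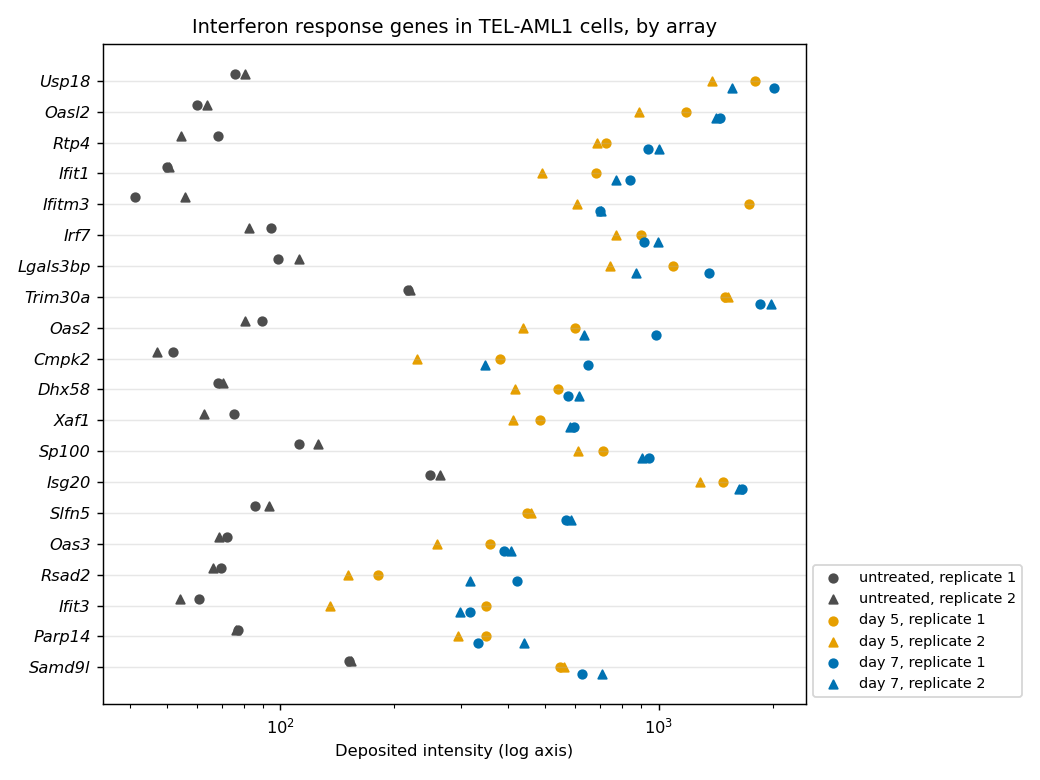
Deposited intensity (log axis) of 20 interferon response genes on the 6 TEL-AML1 arrays, with colour for the stage and shape for the replicate. Every day 5 and day 7 point lies to the right of both untreated points of its gene, and Usp18 spans from 75.9 to 2014.

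Genes of MHC class I presentation rose in the same comparison. This pathway cuts proteins with the immunoproteasome, carries peptides into the endoplasmic reticulum through TAP and loads them on class I molecules. Of 19 members tested, 13 were higher and 0 lower (background 4.74% and 3.07%), with a median of 0.64. Tap1, Psmb9 and Psmb8 are also in the interferon list. The count higher was 10 without untreated replicate 1, untreated replicate 2 or day 7 replicate 2, and 12 without day 7 replicate 1. Tap1, a subunit of the peptide transporter, read 160 and 164 untreated and 574 and 677 at day 7 (difference 1.85, SE 0.11, adjusted p = 4.75e-06), and its partner Tap2 rose by 0.85. The class I heavy chain gene H2-K1 rose by 1.83 (SE 0.21, adjusted p = 0.00065), from 95.8 and 83.8 to 325 and 398. H2 genes resemble each other, and their probe sets may read more than 1 of them. B2m, the light chain of every class I molecule, was already bright at 3364 and 3466 and reached 4708 and 4793 (0.47, adjusted p = 0.00263). Nlrc5, the transactivator of class I genes, rose by 1.63 (adjusted p = 7.75e-06). Of the immunoproteasome subunits, Psmb9 rose by 1.39, Psmb8 by 0.70 and Psmb10 by 0.58. The call of Psmb10 was lost without any 1 of the 4 arrays and that of Psmb8 without any but day 7 replicate 1, at up to 0.149 and 0.0838. The general chaperones of the endoplasmic reticulum in the list, Canx and Pdia3, differed by −0.18 (adjusted p = 0.144) and −0.25 (adjusted p = 0.0812). Among MHC class II and dendritic genes, 2 of 12 tested were higher and 0 lower: Bst2, counted above, and Tcf4.

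Markers of stromal cells were set beside the interferon genes, because the treated cells may have been on OP9. None of the 37 stroma and fibroblast genes tested passed limma's test at day 7 in TEL-AML1 cells, and their median difference was 0.13. At an unadjusted p of 0.05, 2 were higher and 0 lower, against 1523 higher and 1258 lower of all 12345 tested genes. At day 5, limma called 0 of the 37 as well, although 29 were higher at that unadjusted p. A count of 0 called is therefore no measure of absent stromal RNA. Of the defining markers, the matrix genes Lum, Dcn and Postn were too dim to test. Fn1, which encodes fibronectin, read 61.2 and 59.6 untreated, 131 in day 7 replicate 1 and 755 in day 7 replicate 2. Col1a1 read 99.1 and 88.8 untreated and 91.6 and 225 at day 7. Both markers were highest in day 7 replicate 2, and Fn1 was also above the untreated arrays in replicate 1. The summed intensity of the stroma list was 8329 and 7997 untreated, 8298 in day 7 replicate 1 and 10342 in day 7 replicate 2. The mean log2 value of the interferon list was 7.11 and 7.08 untreated and 8.72 and 8.68 at day 7. The mean log2 value of the stroma list was 6.73 and 6.67 untreated and 6.78 and 7.24 at day 7. The median difference of the interferon list was 1.53 without day 7 replicate 1 and 1.45 without day 7 replicate 2. Fn1 was above the untreated arrays in both, so neither fit is free of stromal signal. The part of stromal RNA, or of contact with OP9, in these and the other day 7 differences was not tested.

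**Figure D2:**
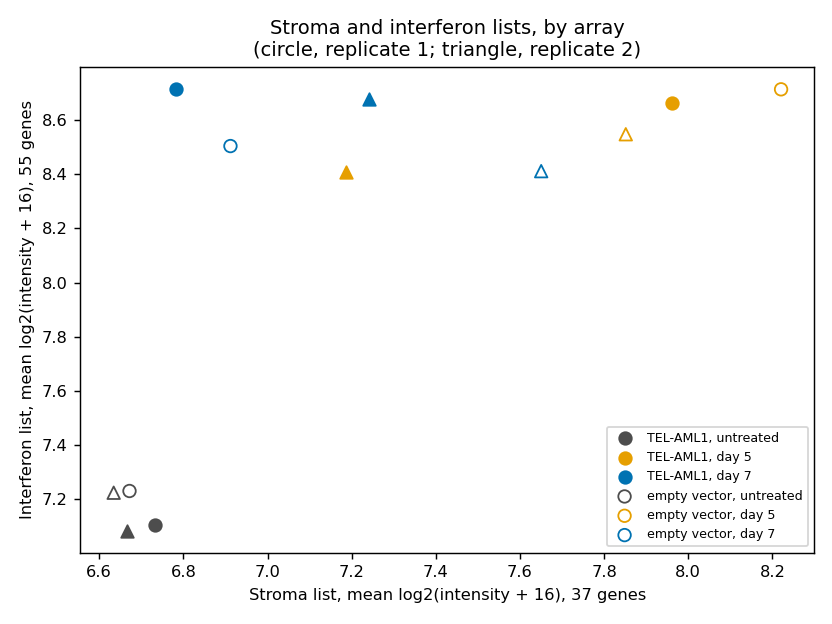
Mean log2(intensity + 16) of 37 stroma genes (horizontal) and 55 interferon genes (vertical) on each of the 12 arrays. The TEL-AML1 day 7 arrays sit at 8.72 and 8.68 on the interferon axis while their stroma means are 6.78 and 7.24, against 6.73 and 6.67 untreated. The empty vector day 7 arrays sit at 8.50 and 8.41, with stroma means of 6.91 and 7.65. At day 5 replicate 1 was the higher array on both axes. The TEL-AML1 pair sat at 8.66 and 8.41 (stroma 7.96 and 7.19), the empty vector pair at 8.71 and 8.55 (stroma 8.22 and 7.85).

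No tested gene of the B lineage programme that the treatment aims at was called higher at day 7. Of the 30 genes listed for the B lineage, 28 are on the array and 14 of them were bright enough to test. Of the 14, 0 were called by limma in either direction and 2 were higher at an unadjusted p of 0.05, with a median of 0.04. At that unadjusted p, 1523 of all 12345 tested genes were higher and 1258 lower. Ebf1, the factor that opens the B-cell programme, read 49.1 and 47.6 untreated and 49.2 and 89.6 at day 7 (difference 0.37, adjusted p = 0.722). All but the last of these values lie under the filter of 59.9. Ebf1 was tested because the filter's mean also took in arrays outside this comparison, among them those of day 5. At day 5 it read 200 and 76.8, again higher in the array with more stroma signal. A link between Ebf1 and stromal RNA was not tested. Pax5, which fixes B-cell identity, differed by −0.13 (adjusted p = 0.507), and the kinase Syk by 0.34 (adjusted p = 0.0532). The 14 members left out were dim in these cells, so that a small rise in them was not detectable here.

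Of the early lymphoid genes, 2 of 19 tested were higher and 0 lower, against 4.74% and 3.07% of all tested genes. Cd93, a surface marker of early progenitors, differed by 0.79 (adjusted p = 0.0413), but its untreated arrays lay apart at 192 and 331. Tcf4, a factor of B and plasmacytoid dendritic development, rose by 0.50 (adjusted p = 0.0177) from 267 and 269 to 383 and 389. The call of Cd93 held only without untreated replicate 2 (up to 0.249 otherwise), and that of Tcf4 ended without any 1 of the 4 arrays (up to 0.122). Il7r, the receptor chain for the cytokine given, read 55.8 and 60.6 untreated and 159 and 52.4 at day 7 (difference 0.56, adjusted p = 0.361). It was high in day 7 replicate 1 alone, and the difference without that array was −0.12. The FLT3 receptor gene was below the filter. Bach2 and Satb1, factors of lymphoid priming, differed by 0.32 (adjusted p = 0.0517) and 0.41 (adjusted p = 0.106).

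**Figure D3:**
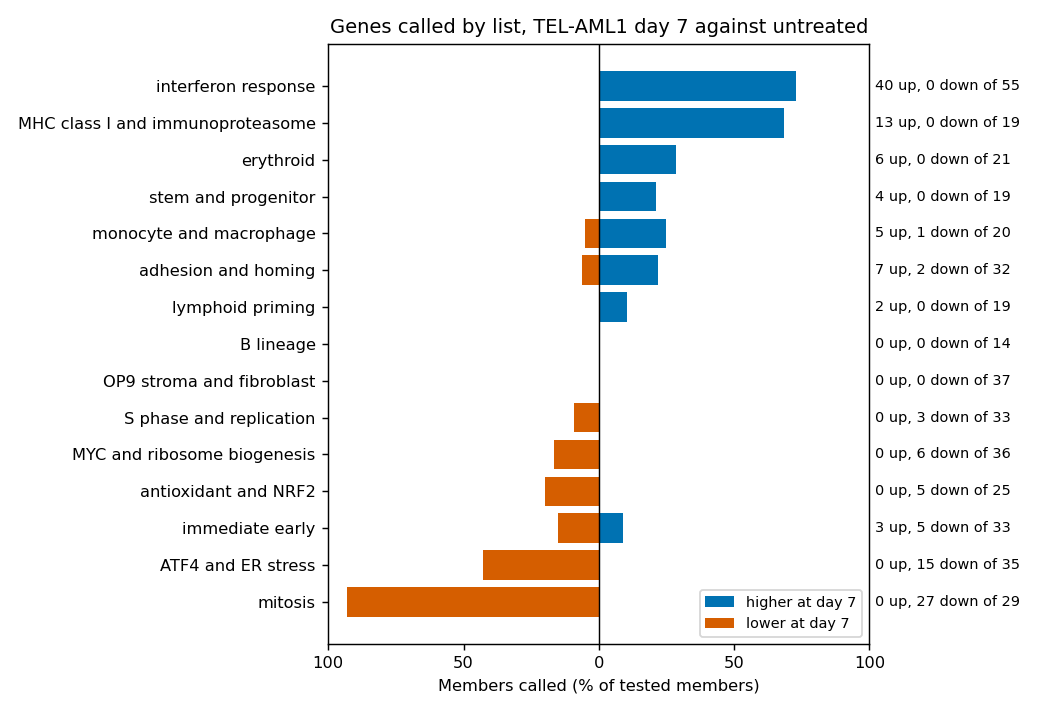
Share of tested members called higher (right) or lower (left) at day 7 in TEL-AML1 cells for 15 gene lists, with the counts at the right. The interferon list (40 of 55) and the MHC class I list (13 of 19) lean right, and the mitosis list (27 of 29) leans left.

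Mitotic genes were lower at day 7. Of 29 tested, 27 were lower and 0 higher (background 3.07% and 4.74%), with a median difference of −0.56. The differences were moderate, from −1.005 for Aurka to −0.35 for the uncalled Cenpa. The count lower was 5 without untreated replicate 1, 4 without untreated replicate 2, 7 without day 7 replicate 1 and 16 without day 7 replicate 2. The median of the list lay between −0.62 and −0.47 in these fits. The list's shift kept its direction in each of these fits, while most single calls needed all 4 arrays. These fits share arrays with the full one, so a similar median in them is no independent support.

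The promoters of 3 of these genes show the letters TTTGAA of the CHR element, in the same windows and with the matches on either strand in capitals.
Aurka, chr2:172370521-172370550, minus strand: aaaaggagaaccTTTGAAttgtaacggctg
Plk1, chr7:122159453-122159482, plus strand: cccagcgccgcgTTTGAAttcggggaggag
Hmmr, chr11:40733412-40733441, minus strand: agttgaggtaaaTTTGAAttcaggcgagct
All 3 matches lie just after the start site, at 32 bases in Aurka, 30 in Plk1 and 8 in Hmmr. Of the 27 members called lower, 22 had a window and 17 of these (77.3%) held the letters. Counted per gene in the same way, 14.01% of all tested genes and 28.4% of all genes called lower (86 of 303) held them. Of all windows of the genome table, counted singly, 17.9% did. A match of 6 letters is common and is no measured site.

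The mitotic kinases and their partners fell together. Aurka, a kinase of the spindle poles, read 457 and 501 untreated and 223 and 238 at day 7 (difference −1.005, SE 0.16, adjusted p = 0.00506). Tpx2, which activates Aurora A on the spindle, read 779 and 773 untreated and 480 and 534 at day 7 (−0.60, SE 0.077, adjusted p = 0.00161). Plk1, a kinase needed for mitotic entry and exit, read 1249 and 1248 untreated and 738 and 811 at day 7 (−0.68, SE 0.12, adjusted p = 0.00849). In each of them the day 7 arrays lay below both untreated ones, with the day 5 arrays between. Bub1, a kinase of the spindle checkpoint, fell by 0.68 (adjusted p = 0.00354) and Hmmr, a spindle protein, by 0.63 (adjusted p = 0.00252). Bub1, Hmmr and Tpx2 kept their calls without each of the 4 arrays. Aurka lost its call without untreated replicate 2 (adjusted p = 0.0655), and Plk1 without either untreated array or day 7 replicate 1 (up to 0.077). The cytokinesis genes Anln, Prc1 and Kif23 fell by 0.76, 0.74 and 0.55. Cdk1, the kinase that drives mitosis, fell by 0.56, Ccna2 by 0.43 and Ccnb2 by 0.38. Mki67, the proliferation marker, fell by 0.37 and Top2a by 0.36, and both were lost without any 1 of the 4 arrays (up to 0.165 and 0.181). Anln kept its call only without day 7 replicate 1, and Prc1 and Ccnb2 only without day 7 replicate 2, with adjusted p up to 0.0923, 0.0932 and 0.159 in the other fits. Kif23 lost its call without untreated replicate 1 (0.0879) or day 7 replicate 2 (0.0512), Cdk1 without untreated replicate 2 (0.132) or day 7 replicate 1 (0.0856), and Ccna2 without either untreated array (up to 0.0569).

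Few genes of DNA replication were called. Of 33 S phase genes, 3 were lower and 0 higher (background 3.07% and 4.74%), with a median of −0.15: Mcm10 fell by 0.43, Exo1 by 0.41 and Rrm1 by 0.28. None of these 3 calls held without any 1 of the 4 arrays, at up to 0.212, 0.218 and 0.262. Fancb, of the Fanconi anaemia core complex, fell further, by 1.15 (SE 0.094, adjusted p = 5.59e-05), from 397 and 450 to 185 and 177, and kept its call without each array. Ccnd1, the cyclin that growth signals induce, read 920 and 886 untreated and 434 and 321 at day 7. Its difference of −1.24 did not pass (adjusted p = 0.0656), with a standard error of 0.36. Btg1, an antiproliferative gene, rose by 0.73 (adjusted p = 0.00429, but 0.0557 without untreated replicate 1).

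Targets of ATF4 and of the stress of the endoplasmic reticulum formed the second lower group. Of 35 tested, 15 were lower and 0 higher (background 3.07% and 4.74%), with a median of −0.37. The count lower was 4 without untreated replicate 1, 5 without untreated replicate 2 and 8 without either day 7 array. The lowest difference of all called genes was that of Chac1, a glutathione-degrading enzyme induced by ATF4. It read 402 and 392 untreated, 111 and 116 at day 5 and 97.7 and 99.2 at day 7 (difference −1.85, SE 0.11, adjusted p = 6.83e-06). Mthfd2, a mitochondrial folate enzyme, read 806 and 832 untreated and 350 and 292 at day 7 (−1.32, SE 0.093, adjusted p = 2.14e-05). Slc7a11, the cystine carrier, read 152 and 162 untreated and 59.2 and 55.9 at day 7 (−1.23, adjusted p = 0.00711). Chac1 and Mthfd2 kept their calls without each array, and Slc7a11 lost it without either untreated array (up to 0.0739).

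The letters searched for here were TGATGNAA, the form of a C/EBP-ATF response element, on either strand and in the same promoter windows.
Chac1, chr2:119351038-119351067, plus strand: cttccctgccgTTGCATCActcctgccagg
Slc7a11, chr3:50443661-50443690, minus strand: tctcatgtggcTGATGCAAacctggagaat
Nupr1, chr7:126625562-126625591, minus strand: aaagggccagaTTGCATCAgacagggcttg
Trib3, chr2:152344028-152344057, minus strand: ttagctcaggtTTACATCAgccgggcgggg
The 250 bases before the Chac1 start, chr2:119350992-119351241, hold 1 match, 193 bases before the start.
Chac1, 250 bases before the start, plus strand: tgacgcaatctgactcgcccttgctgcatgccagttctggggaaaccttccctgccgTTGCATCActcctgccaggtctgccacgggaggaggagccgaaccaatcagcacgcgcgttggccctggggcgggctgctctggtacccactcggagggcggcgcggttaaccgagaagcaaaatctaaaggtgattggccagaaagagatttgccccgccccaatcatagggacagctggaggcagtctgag
Of the 15 members called lower, 13 had a window and 6 of these (46.2%) held the letters, against 3 of 18 members not called (16.7%). Counted per gene, they stood in a window of 2.77% of tested genes and of 6.27% of genes called lower (19 of 303). This describes the letters in the windows and was not tested.

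By role, the falls took in amino acid synthesis, transfer RNA charging and transport. Psat1, of serine synthesis, fell by 0.74 (adjusted p = 0.00465), and Shmt2, which passes on the serine carbon in mitochondria, by 0.55 (adjusted p = 0.0302). The tRNA synthetase genes Nars, Gars and Cars fell by 0.82, 0.75 and 0.94, Cars being outside the list. The amino acid carriers Slc6a9, Slc7a1 and Slc7a5 fell by 0.95, 0.75 and 0.75, and Slc1a4, outside the list, by 1.11. Gpt2, an aminotransferase outside the list, read 292 and 274 untreated and 109 and 98.4 at day 7 (−1.32, SE 0.10, adjusted p = 4.02e-05). Atf4 itself fell by 0.50 (adjusted p = 0.0107) from 646 and 691 to 504 and 435. Its targets Sesn2, Nupr1 and Trib3 fell by 0.63, 0.58 and 0.41. Asns, the asparagine synthetase, differed by −0.74 and did not pass (adjusted p = 0.0763). Psat1, Nars, Cars, Slc1a4 and Gpt2 kept their calls without each array. Shmt2, Slc7a5, Nupr1 and Trib3 lost them without any 1 of the 4 (up to 0.174, 0.149, 0.219 and 0.163), Sesn2 without any but day 7 replicate 2 (0.0597), and Atf4 and Slc7a1 without any but day 7 replicate 1 (0.114 and 0.128). Gars kept its call only without day 7 replicate 2 (up to 0.0787), and Slc6a9 lost it without untreated replicate 1 (0.0787). The chaperone Hspa5 (BiP), the general marker of endoplasmic reticulum stress, differed by −0.23 (adjusted p = 0.301). Herpud1, of the degradation machinery there, fell by 0.39 (adjusted p = 0.0268, up to 0.172 with an array left out).

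**Figure D4:**
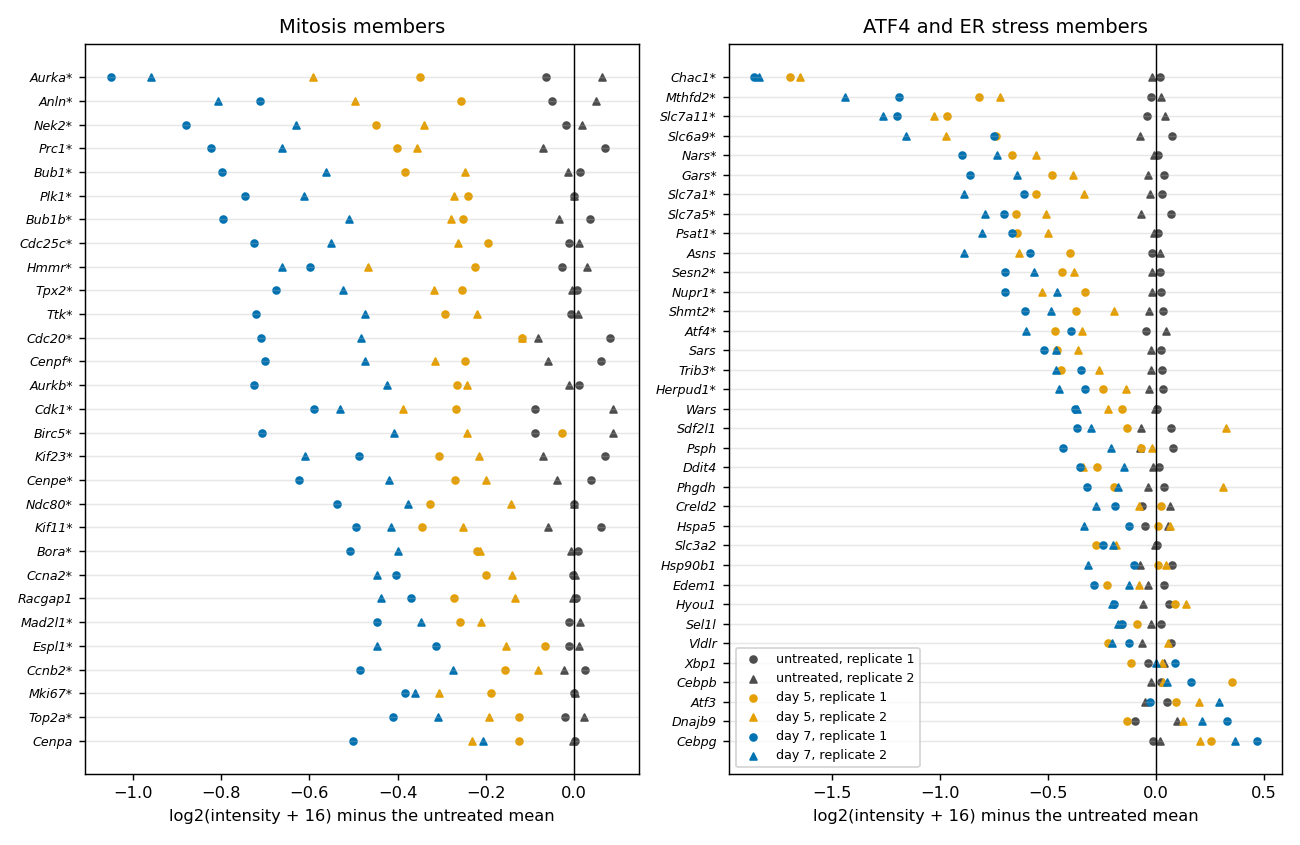
Difference of each TEL-AML1 array from the untreated mean on the log2(intensity + 16) scale, for 29 mitosis genes (left) and 35 ATF4 and stress genes (right), with an asterisk on the genes called at day 7. The day 7 points of every mitosis gene lie left of 0 and those of Chac1 lie farthest left at the right.

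Other metabolic genes were lower too, in lists set here against 3.07% lower and 4.74% higher of all tested genes. Pfkp, the platelet type of phosphofructokinase in glycolysis, read 314 and 326 untreated and 126 and 143 at day 7 (difference −1.16, SE 0.12, adjusted p = 0.000286). Ero1a, an oxidase of protein folding, fell by 1.00 (adjusted p = 0.00016) from 1794 and 1786 to 852 and 924. Both kept their calls without each array. Over the glycolysis and hypoxia list, 3 of 29 were lower and 2 higher (Car9 and Mxi1), and the lower ones other than Pfkp, namely Pgam1 (−0.43) and Pgk1 (−0.36), were lost without any 1 of the 4 arrays (up to 0.209 and 0.254). Of the antioxidant list, 5 of 25 were lower and 0 higher: Slc7a11, Hmox1 (−1.14), Gclm (−0.57), Txnrd1 (−0.47) and Gsr (−0.45). Hmox1, the haem-degrading enzyme, read 383 and 354 untreated and 139 and 181 at day 7. Without 1 array the count was 1 (either untreated array) or 2 (either day 7 array), and Gsr, the glutathione reductase, kept its call throughout. Of genes of MYC and ribosome building, 6 of 36 were lower and 0 higher, with a median of −0.28. They included Gar1, of pseudouridine-guiding particles, at −0.84, Utp20, of ribosome assembly, at −0.39 and the mitochondrial chaperone Hspd1 at −0.35. That count fell to 2 without untreated replicate 1 and to 1 without any other array.

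Erythroid genes were partly higher. Of 21 tested, 6 were higher and 0 lower (background 4.74% and 3.07%), with a median of 0.38. The count was 1 without untreated replicate 1, 2 without untreated replicate 2 or day 7 replicate 1, and 6 without day 7 replicate 2. Car1, a carbonic anhydrase of early red cells, read 205 and 238 untreated and 2308 and 1689 at day 7, a difference of 3.07 (SE 0.49, adjusted p = 0.00503, and 0.0533 without untreated replicate 1). Nfe2, a factor of globin and platelet genes, rose by 0.94 (SE 0.14, adjusted p = 0.00337) from 281 and 275 to 566 and 528, and kept its call without each array. Gata1, the chief erythroid factor, read 238 and 239 untreated and 441 and 428 at day 7 (0.82, adjusted p = 0.0267). The membrane genes Ermap and Rhag rose by 1.58 (adjusted p = 0.0233) and 0.99 (adjusted p = 0.0341), and the erythropoietin receptor Epor by 0.48 (adjusted p = 0.0386). Gata1, Rhag and Epor lost their calls without any 1 of the 4 arrays (up to 0.156, 0.208 and 0.231), and Ermap kept its call only without day 7 replicate 2. Klf1, the factor of late red cell genes, differed by 1.17 (adjusted p = 0.0787) and Alas2, of haem synthesis, by 0.46 (adjusted p = 0.11). For most of these genes day 7 replicate 1 was the higher array. The summed intensity of the erythroid list was 4298 and 4220 untreated and 7709 and 6301 at day 7.

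Stem, megakaryocyte and mast cell genes showed single changes. Among all tested genes 4.74% were higher and 3.07% lower. Of 19 stem and progenitor genes, 4 were higher and 0 lower. Angpt1, the ligand of the TIE2 receptor, read 194 and 210 untreated and 629 and 628 at day 7 (1.56, SE 0.18, adjusted p = 0.000857). Gfi1b, Slamf1 and Sox4 rose by 0.73, 0.69 and 0.62. Without 1 array, the list's count was 1, or 2 without day 7 replicate 2, and Angpt1 was called each time. Of 19 megakaryocyte genes, 3 were higher: Nfe2, Zfpm1, the partner of GATA1, at 0.49 and the platelet chemokine Ppbp at 0.98. Ppbp was apart at day 7, with 590 and 283, and was called otherwise only without day 7 replicate 2, while Zfpm1 lost its call without untreated replicate 2 (0.0668). Of 25 mast cell and basophil genes, Ms4a2, a chain of the IgE receptor, was higher at 1.34 (adjusted p = 0.0338, up to 0.2 with an array left out). The tryptase Tpsab1 was lower, at −0.61 (adjusted p = 0.00271), and kept its call. Cma1 and Hdc, a chymase and the histamine-making enzyme, differed by 1.01 and 0.87 without passing (adjusted p = 0.066 and 0.155). Granulocyte genes (15 tested) and T and NK genes (15 tested) had 0 called by limma in either direction. In each list 2 were higher at an unadjusted p of 0.05, against 1523 of all 12345 tested genes.

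Of 20 monocyte and macrophage genes, 5 were higher and 1 lower (background 4.74% and 3.07%). Ms4a6c, a membrane protein of myeloid cells, read 75.2 and 79.2 untreated and 652 and 409 at day 7 (2.52, SE 0.19, adjusted p = 3.55e-05). Its neighbour Ms4a6b read 52.9 and 60.2 untreated and 471 and 285 at day 7 (2.40, adjusted p = 6.4e-05). The 2 genes are near copies, and their probe sets may read each other's RNA. Ccr2, the chemokine receptor of inflammatory monocytes, rose by 1.22 (adjusted p = 5.59e-05) from 203 and 218 to 457 and 567. The coagulation factor gene F10 and the integrin Itgam rose by 0.44 and 0.41 and lost their calls without any 1 of the 4 arrays (up to 0.171 and 0.235). Cd68, a macrophage lysosomal protein, fell by 0.60 (adjusted p = 0.00158). The list's members thus moved both ways, and its median was 0.07.

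Adhesion and homing genes were called 7 times higher and 2 times lower among 32 tested (background 4.74% and 3.07%). Gpr183, the oxysterol receptor that guides B cells in lymphoid tissue, read 229 and 206 untreated and 485 and 521 at day 7 (1.15, SE 0.11, adjusted p = 0.000165). Ccr2 and Icam2, an adhesion molecule that rose by 0.47, also kept their calls without each array. The selectin ligand Selplg and the integrins Itga4, Itga5 and Itgam rose by 0.49, 0.57, 0.48 and 0.41. Itga6 and Icam1 fell by 0.31 each. The count higher was 3 without either untreated array or day 7 replicate 1 and 7 without day 7 replicate 2, and the count lower was 0 and 1 in those fits.

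Genes of growth factor signalling moved in both directions. Of 33 immediate early genes, 3 were higher and 5 lower (background 4.74% and 3.07%). Etv5 and Etv4, ETS factors induced by the ERK pathway, fell by 1.11 (SE 0.16, adjusted p = 0.00295) and 0.80 (adjusted p = 0.0442). Etv5 read 209 and 210 untreated and 86.2 and 91.3 at day 7. The ERK phosphatase genes Dusp4 and Dusp2 fell by 0.89 and 0.74, and the RNA-binding protein gene Zfp36 by 0.57. Ier3, Dusp1 and Nr4a2 rose by 0.92, 0.68 and 0.52. Without 1 array the counts were 1 higher and 2 or 3 lower, with Ier3, Etv5 and Dusp2 called each time. Of the day 7 arrays, Fosb and Nr4a1 were high in replicate 2 alone, with 366 and 217 against 80.3 and 54.8 in replicate 1. They did not pass (adjusted p = 0.686 and 0.569). The list's mean log2 value at day 7 was 7.41 in replicate 1 and 7.64 in replicate 2. It was also higher in replicate 2 at day 5, and at both times with the empty vector.

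Further lower genes lay outside these groups. Dhrs9, a retinol dehydrogenase, read 401 and 403 untreated and 96.3 and 115 at day 7 (−1.79, SE 0.15, adjusted p = 8.22e-05). Flt1, a receptor of VEGF, fell by 1.26 (SE 0.17, adjusted p = 0.00252) from 466 and 461 to 205 and 165. Both kept their calls without each array. Il6, the cytokine, fell by 0.99 (adjusted p = 0.00635), and the activation marker Cd69 by 1.02 (adjusted p = 0.0108). Il6 lost its call without untreated replicate 2 or day 7 replicate 1 (up to 0.0739), and Cd69 without any but day 7 replicate 1 (up to 0.0912). Plau (urokinase), the drug exporter Abcb1b and the purine receptors P2ry14 and P2rx3 fell by 1.14, 1.12, 1.07 and 1.05. None of these 4 kept its call in all fits without an array (up to 0.197, 0.11, 0.114 and 0.121).

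The time course of the same cells was read from the day 5 arrays, which share the untreated arrays with the day 7 comparison. At day 5, 197 genes passed (1.6%), 144 higher (1.17%) and 53 lower (0.429%). Of the interferon list, 36 of 55 were higher at day 5 with a median of 1.22, and of the MHC class I list 13 of 19 with a median of 0.71. Of the mitosis list, 0 of 29 passed limma's test at day 5, with a median of −0.25. At an unadjusted p of 0.05, 14 of them were lower, against 596 of all 12345 tested genes. Of the ATF4 list 6 of 35 were lower by limma, with a median of −0.23. Aurka, for example, read 372 and 312 at day 5, between the untreated and day 7 arrays, while Usp18 already read 1792 and 1380. The direct comparison of day 7 with day 5 called 0 genes (0%) by limma, and 989 passed an unadjusted p of 0.05. The smallest adjusted p was 0.106. No single gene passed between the 2 times. At an unadjusted p of 0.05, 20 of 29 mitosis genes were lower at day 7 than at day 5 and 0 higher, with a list median of −0.29, and 16 of 55 interferon genes were higher and 0 lower. Over all 12345 tested genes, 469 were higher and 520 lower at that unadjusted p. The stroma sums at day 5 were 15574 and 9910, against 8298 and 10342 at day 7. Of the 37 stroma genes, limma called 0 at day 5, but 29 were higher than untreated at an unadjusted p of 0.05. Their median difference at day 5 was 0.63, and the part of stromal RNA in the day 5 differences was not tested.

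Cells with the empty vector, treated in the same way, share no array with this comparison. Without TEL-AML1, 1907 genes passed at day 7 (15.4%), 774 higher (6.27%) and 1133 lower (9.18%). The interferon list had 39 of 55 higher with a median of 0.96, and the MHC class I list 11 higher and 1 lower of 19 with a median of 0.38. The mitosis list had 4 of 29 lower with a median of −0.26, the ATF4 list 19 lower and 1 higher of 35 with a median of −0.44, and the stroma list 2 of 37 higher with a median of 0.42. A difference in such counts is no test, and the difference between the responses was fitted gene by gene. It passed for 10 genes (0.081%), 7 with the greater difference in TEL-AML1 cells (0.0567%) and 3 with the lesser (0.0243%), and 1112 passed an unadjusted p of 0.05. In it, 3 of 55 interferon genes passed and, by limma, 0 of the mitosis, ATF4 and MHC class I lists. At an unadjusted p of 0.05, the TEL-AML1 response minus the empty vector response was above 0 for 24 of 55 interferon genes and below 0 for 0. It was below 0 for 10 of 29 mitosis genes. Of 19 MHC class I genes it was above 0 for 8 and below 0 for 1. Over all 12345 tested genes it was above 0 for 761 and below 0 for 351 at that unadjusted p. A block on the replicate number within each condition, added because same-numbered arrays of both vectors deviated together, called 32 genes.

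Interferon members that differed between the vectors were Slfn5, Rsad2 and Parp14. Parp14, a poly(ADP-ribose) polymerase family member, read 77 and 76.5 untreated and 333 and 441 at day 7 with TEL-AML1, and 57.1 and 57.5 untreated and 90.1 and 99.5 at day 7 without it. Its responses differed by 1.51 (SE 0.17, adjusted p = 0.0126). Rsad2 without TEL-AML1 went from 59.2 and 58.7 to 123 and 105, and its responses differed by 1.39 (SE 0.19, adjusted p = 0.0315). Slfn5 without TEL-AML1 went from 130 and 133 to 399 and 392, and its responses differed by 1.01 (SE 0.097, adjusted p = 0.0103). Both vectors showed a rise in each of these genes, and the rise with TEL-AML1 was the greater. Cmpk2, beside Rsad2, differed by 2.55 but did not pass (adjusted p = 0.0509), and neither did Sp100 at 1.25 (adjusted p = 0.0654). These calls rest on few arrays: the count of 10 became 0 without any 1 of the 4 untreated arrays, 74 when empty vector replicate 2 of day 7 was left out, 23 when TEL-AML1 replicate 2 of day 7 was left out and 19 when empty vector replicate 1 of day 7 was left out.

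**Figure D5:**
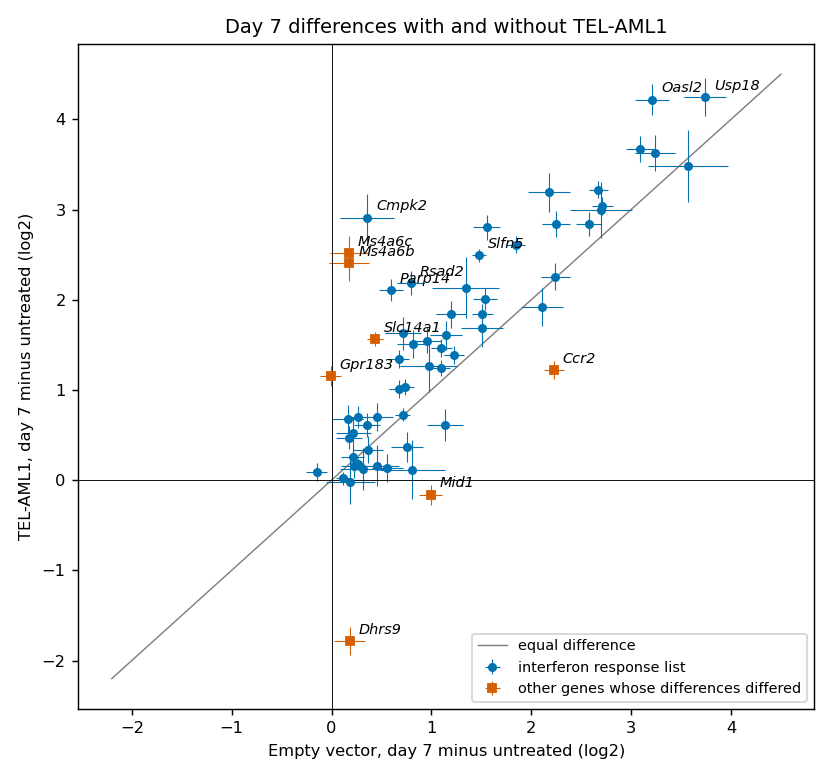
Day 7 minus untreated difference (log2) in TEL-AML1 cells (vertical) against empty vector cells (horizontal) for the 55 interferon genes and for other genes whose differences differed between the vectors, with bars of 1 SE. Parp14, Rsad2 and Slfn5 lie above the line of equal difference, and Ccr2, Mid1 and Dhrs9 below it.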

How the data were processed

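RNA of EML1 cells was measured on 12 Affymetrix arrays, 2 for each of 6 groups named by the sample titles. RNA was prepared with TRIzol and RNeasy columns and hybridised as biotin-labelled cRNA, per the labels' protocols. The authors deposited 1 linear intensity per probe set, from 15.2 to 7932, for 35556 probe sets, and their correction, summary and normalization are not given in the sources used here. An array has no read depth, so the number of arrays limits the precision.

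Array medians lay within 0.08 log2 of each other, under a limit of 0.5 for renormalization, and the deposited intensity was kept. Gene names came from the platform's annotation: 21218 list 1 gene, 1881 several and 12457 none, and only the first kind was named. Of them, 21185 were found, by Entrez number, in the RefSeq table for GRCm38.p6. Each of 18820 genes took its brightest probe set, and 12345 with a mean above the 40th percentile of probe sets (intensity 59.9) were tested. Of the 1386 genes with several probe sets, 0 had called probe sets that disagreed in direction at day 7.

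Values were taken as log2(intensity + 16) and fitted as 6 group means with limma 3.58.1 (lmFit, eBayes) in R 4.3.3. The fit had 6 residual degrees of freedom and a prior of 4.23. Benjamini-Hochberg adjustment ran over all tested genes of a contrast, with 0.05 as the threshold, and a gene past it is said to be called, higher or lower. Tested on simulated data with 12345 genes, the day 7 comparison recovered 59.7% of differences of 0.5 on the log2 scale. It recovered 89.6% of differences of 1 and 98.5% of 2, with 66 or 67 genes changed at each size. Of the unchanged genes, 10 were called. The simulated noise was independent between arrays. In the data, replicate 1 deviations of both vectors correlated at 0.38 at day 7, so recovery may differ. The lists and members were chosen with earlier results of these data known, so counts are given without a set test. Named genes were the 20 highest and 20 lowest called differences whose arrays do not overlap, the 10 highest and 10 lowest differences between responses, up to 8 members of each of 32 lists by adjusted p, and chosen factors and receptors. Of these a part is given. Arrays of the 2 groups did not overlap, with day 7 higher, for 29.2% of all tested genes, and lower for 27.5%. Members named in the text beyond these, such as Cars, Igf1r, Tspan13, Mov10, Pml, B2m, Atf4, Asns, Mki67 and Fosb, were chosen after their values were seen.

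The labels do not say that replicate numbers pair arrays. Between untreated and day 7 TEL-AML1 arrays, deviations of replicate 1 correlated at 0.14. Promoter sequences are from RefSeq on GRCm38.p6, as 300 bases around 32851 start sites, and 9879 tested genes had one. Figures were drawn with matplotlib 3.10.9.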

Additional observations from a re-analysis of the deposited data

Results flagged for a closer look

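The following genes had a day 7 response that differed between TEL-AML1 and empty vector cells by the fitted difference itself (limma). With TEL-AML1 the response was greater for Ms4a6c by 2.35 (SE 0.27, adjusted p = 0.0126) and for its near copy Ms4a6b by 2.23 (SE 0.28, adjusted p = 0.0245). Ms4a6c read 48.8 and 49.2 untreated and 66.8 and 48.7 at day 7 with the empty vector, so the rise seen with TEL-AML1 had no counterpart of like size there. The response was also greater for Parp14 by 1.51 (SE 0.17, adjusted p = 0.0126), Rsad2 by 1.39 (SE 0.19, adjusted p = 0.0315) and Slfn5 by 1.01 (SE 0.097, adjusted p = 0.0103), all of the interferon list. Gpr183, the oxysterol receptor, differed by 1.16 (SE 0.15, adjusted p = 0.0293), and its empty vector difference was −0.01. Slc14a1, a urea carrier, differed by 1.12 (SE 0.12, adjusted p = 0.0103). It started from 490 and 476 with TEL-AML1 and from 1720 and 1660 with the empty vector, and reached 1552 and 1370 against 2334 and 2256.

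The response was lower with TEL-AML1 for Dhrs9, the retinol dehydrogenase, by a difference of −1.97 (SE 0.22, adjusted p = 0.0126). Dhrs9 was bright in untreated TEL-AML1 cells only, at 401 and 403 against 82.5 and 69.9 with the empty vector, and ended near the same level in both. Mid1, a ubiquitin ligase on microtubules, differed by −1.15 (SE 0.16, adjusted p = 0.0315), and Ccr2 by −1.01 (SE 0.14, adjusted p = 0.0331). Ccr2 rose in both, from 139 and 149 to 740 and 726 with the empty vector. All 10 genes also passed with a replicate block within each condition, and 0 genes passed without any 1 of the 4 untreated arrays.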

How the results depend on the processing

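Counts of called genes moved most with the arrays used. For day 7 against untreated in TEL-AML1 cells, array weights gave 2233 genes (1259 higher, 974 lower) and a fit of the compared groups alone 1637 (919 and 718). Leaving out 1 array, or 1 replicate number, gave 95 to 508 genes, 77 to 329 higher and 18 to 179 lower. A replicate block over all conditions gave 966, and a replicate block per vector 678, with 236 lower. The replicate numbers are not known to pair the arrays. At day 5, array weights gave 468, the replicate block per vector 131, and leaving out 1 array or replicate number 46 to 290. Day 7 against day 5 called 1 gene with a pseudocount of 64, and 0 to 17 without an array. The empty vector comparison called 295 with its own groups alone, 115 without replicate 1 of those groups, and 303 to 2797 without 1 array. The difference between responses called 5 genes with no filter on dim genes, 3 with the compared groups alone, 32 with the replicate block within each condition, chosen after seeing the data, and 0 to 74 without an array. The causes were not tested.

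Of 166 called genes examined singly, 54 kept direction and call in every alternative, 112 lost the call in 1 or more and 0 reversed. Of 34 genes not called, 18 passed in 1 or more alternatives, so a gene said not to pass may do so with other processing. Of the same 34, 3 changed sign: Col1a1 (−0.10 to 1.20 without a replicate number, −0.03 without TEL-AML1 day 7 replicate 2), Fosb (−0.071 to 1.96, and −0.05) and Il7r (−0.16 to 1.29, and −0.12 without TEL-AML1 day 7 replicate 1). Genes near the lower end of the intensity scale have compressed differences.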

Other observations

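Some lipid genes, singled out after their values were seen, were higher at day 7 in TEL-AML1 cells. Abcg1, a sterol exporter, read 290 and 282 untreated and 712 and 753 at day 7 (1.31, SE 0.094, adjusted p = 2.25e-05). Mylip, which marks the LDL receptor for degradation, rose by 0.95 (adjusted p = 0.000133) from 196 and 225 to 400 and 440. Both are known targets of the liver X receptors, as is Apoe, a lipid carrier, which rose by 1.16 (adjusted p = 0.000883). The 3 kept their calls without each array. Of the sterol and fatty acid list, 3 of 31 were higher and 0 lower (background 4.74% and 3.07%), Scd2 being the third at 0.41, with a median of −0.10. Scd2 kept its call only without day 7 replicate 2 (adjusted p up to 0.0923 without another array).

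Genes of survival and p53 changed singly. Gadd45a, a growth arrest gene, read 83.8 and 81.8 untreated and 148 and 148 at day 7 (0.73, adjusted p = 0.000664) and kept its call. Of 24 p53 targets, 2 were higher (Gadd45a and Trp53inp1) and 2 lower (Sesn2 and Tigar), with a median of 0.00. Without any 1 array 1 was higher, and 0 were lower except without day 7 replicate 2, where 1 was. The kinase Pim1, a target of STAT5, rose by 1.08 (adjusted p = 0.0141), with up to 0.0986 when an array other than day 7 replicate 1 was left out. Bcl2, which blocks cell death, and Bcl2l11, which promotes it, rose by 0.41 and 0.53, and both calls were lost without any 1 of the 4 arrays (up to 0.169 and 0.235). Igf1r and Tspan13, outside the lists, rose by 1.35 and 1.61, and both kept their calls.

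Of 30 genes of TGF-beta and BMP signalling, 2 were higher and 0 lower, near the 4.74% and 3.07% of all tested genes. They encode the signal carriers Smad3 and Smad1, which rose by 0.48 and 0.33, but 0 were called without either untreated array or day 7 replicate 1, and 1 without day 7 replicate 2. Of 33 lysosomal genes, 3 were lower and 0 higher (background 3.07% and 4.74%): Cd68, the proton pump subunit Atp6v1a at −0.50 and the glucuronidase Gusb at −0.41, with 1 called without untreated replicate 1 and 2 without any other array. Of 30 cytokine receptor and ligand genes, 3 were higher and 0 lower (background 4.74% and 3.07%): Ifngr1, Epor and Il2ra, the alpha chain of the IL2 receptor, which rose by 0.41. The count of 3 held without day 7 replicate 2 and was 1 without any other array.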
